A study of Mus musculus with 62 samples.

Results

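Ionotropic glutamate receptors of the AMPA and NMDA types carry most of the fast excitatory transmission in the brain. Their subunit genes were followed here in a cortical region, the PFC (prefrontal cortex), and a striatal one, the NAc (nucleus accumbens). The mice had undergone mCRS, a multimodal form of chronic restraint stress, or were unstressed controls (CTR). The genes described were the 10 listed subunits Gria1, Gria2, Gria3, Gria4, Grin1, Grin2a, Grin2b, Grin2c, Grin2d and Grin3a, chosen by symbol. All 10 had a row among the 11121 genes counted.

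AMPA receptors are tetramers of the Gria products and carry the rapid part of the synaptic current. The Gria2 product makes the channel nearly impermeable to calcium, because its messenger RNA is edited at a single codon of the pore loop, so the balance of Gria2 against the other subunits bears on calcium entry. NMDA receptors need the Grin1 product, which binds glycine or D-serine, together with a Grin2 product, which binds glutamate and sets the kinetics, or the Grin3a product, which lowers calcium flow. In the striatum, of which the NAc is the ventral part, glutamatergic axons arrive from the cortex and most neurons are GABAergic projection neurons, whereas the PFC holds glutamatergic pyramidal neurons and interneurons.

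The animals were male wild-type C57BL/6j mice, 15 weeks old at tissue collection. mCRS mice were restrained daily and then between behavioural tests, and CTR mice were kept as unstressed controls. Both groups took the social interaction, forced swim and saccharin preference tests. Tissue was collected some days after the last stress session. RNA came from whole tissue of 1 hemisphere per animal, so every group is a mixture of cell types, and no gene was deleted or transgene carried in any group. For the PFC, 15 libraries came from CTR and 15 from mCRS animals, and for the NAc 16 from each, with 1 library per animal and region. BRB-seq, a method that tags the 3′ ends of messenger RNA, gave read counts per gene. In such bulk tissue, fewer cells of a type and less RNA per cell cannot be told apart.

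The part of the subunits that the editing concerns is shown first, since it sets the AMPA genes apart from the NMDA genes although the 3′ counts do not read it. The stretches are the 45 bases of coding sequence around the pore-loop position, 5′ to 3′ on the sense strand, from GENCODE transcripts of GRCm38. The capitals mark the codon of the glutamine/arginine site in the AMPA subunits and of the asparagine at the tip of the loop in the NMDA subunits.
Gria1: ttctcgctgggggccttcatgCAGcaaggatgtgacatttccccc
Gria2: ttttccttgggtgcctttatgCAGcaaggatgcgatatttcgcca
Gria3: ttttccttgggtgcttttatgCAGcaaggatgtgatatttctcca
Gria4: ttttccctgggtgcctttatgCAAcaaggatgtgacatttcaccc
Grin1: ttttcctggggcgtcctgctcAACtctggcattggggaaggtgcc
Grin2a: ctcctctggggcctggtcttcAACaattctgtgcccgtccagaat
The genome carries a glutamine codon in all 4 AMPA genes, CAG in Gria1, Gria2 and Gria3 and CAA in Gria4, so the arginine of the Gria2 product can come only from editing of its RNA. Each stretch lies in annotated coding sequence: Gria1 at chr11:57243073-57243117 on the plus strand, in exon 11 of 16, Gria2 at chr3:80706890-80706934 on the minus strand, in exon 11 of 16, Gria3 at chrX:41610244-41610288 on the plus strand, in exon 11 of 16, and Gria4 at chr9:4464116-4464160 on the minus strand, in exon 12 of 17. Grin2a lies at chr16:9653540-9653584 on the minus strand, in exon 10 of 14, and the Grin1 stretch is split between exons 14 and 15 of 21 within chr2:25297292-25297409. Gria2 and Gria3 were identical at 42 of the 45 bases and Gria1 and Gria2 at 36, whereas Gria2 and Grin2a shared 12. Of the genes on which the regional results turn, all protein coding, the spans are chr11:57011387-57330244 (Gria1, ENSMUSG00000020524), chr3:80681450-80802835 (Gria2, ENSMUSG00000033981), chrX:41400854-41678601 (Gria3, ENSMUSG00000001986) and chr16:9567898-9995560 (Grin2a, ENSMUSG00000059003).

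The depth of a library ranged from 945286 to 4857359 counts, of which the 10 subunits together held between 1618 and 15217. The share of the listed genes with at least 1 count was 87.1% ± 4.42 in PFC CTR (SD, n = 15), 82.3% ± 6.22 in PFC mCRS (n = 15), 90.2% ± 7.13 in NAc CTR (n = 16) and 88.5% ± 7.43 in NAc mCRS (n = 16). Marker sums followed the labelled regions. The 8 markers of cortical excitatory neurons summed to between 713 and 1577 CPM in the 30 PFC libraries and to between 34.4 and 551 CPM in the NAc, and the 9 markers of striatal projection neurons summed to between 271 and 1283 CPM in the PFC. In the NAc these striatal markers summed to at least 2702 CPM in all libraries but one: the library labelled NAc CTR replicate 7 had 523 CPM, within the PFC range, with 2676 CPM of the 4 counted hypothalamic markers against 711 CPM or less in the other NAc CTR libraries. NAc mCRS replicate 10 had 24076 CPM of the 3 counted choroid plexus markers, against at most 410 CPM in the other NAc mCRS libraries. The calls of subunits, and those of other genes around these receptors between the regions, are given with and without these libraries. Marker results and most shares over all genes include them.

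Levels were ordered per length, as CPM (counts relative to the TMM-scaled library total) per kilobase of annotated exon. Because reads were taken from 3′ ends, counts need not grow with transcript length, so this scale lowers genes with long annotated exons such as Grin2b, Grin2a and Gria2 (15548 bases, against 6043 for Gria1). In PFC CTR libraries Gria2 was highest at 72.5 ± 22.6 CPM per kb (SD, n = 15), before Gria1 at 48.9 ± 17.4, Gria3 at 31.2 ± 9.75, Grin1 at 30.9 ± 10.9, Grin2b at 15.3 ± 5.37 and Grin2a at 13.6 ± 4.86. In NAc CTR libraries Gria1 stood before Gria2 on this scale, with Gria1 at 65.6 ± 15.2 CPM per kb and Gria2 at 49.5 ± 15.6 (n = 16), and Grin1 at 29.1 ± 8.83 stood before Gria3 at 14.3 ± 4.88, Grin2b at 11.4 ± 3.74, Gria4 at 7.46 ± 7.12 and Grin2a at 6.5 ± 2.70. By CPM without division by length, Gria2 had the highest mean in all 4 groups, in NAc CTR at 770 against 397 CPM for Gria1, so the order of this pair in the NAc rests on the length. Gria4, Grin2c, Grin2d and Grin3a stayed below 10 CPM per kb on average in every group.

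Not every step in these orders was larger than the spread. In PFC CTR the steps from Gria2 to Gria1, from Gria1 to Gria3 and from Grin1 to Grin2b exceeded the larger SD of the neighbours, and in NAc CTR those from Gria1 to Gria2, from Gria2 to Grin1 and from Grin1 to Gria3 did. The other 6 steps of each order lay within it, among them Gria3 and Grin1 in the PFC and Grin2b, Gria4 and Grin2a in the NAc. In the mCRS libraries of the PFC the steps from Gria2 to Gria1 and from Gria3 to Grin2b exceeded the spread, and in those of the NAc the steps from Gria2 to Grin1 and from Grin1 to Gria3.

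**Figure D1:**
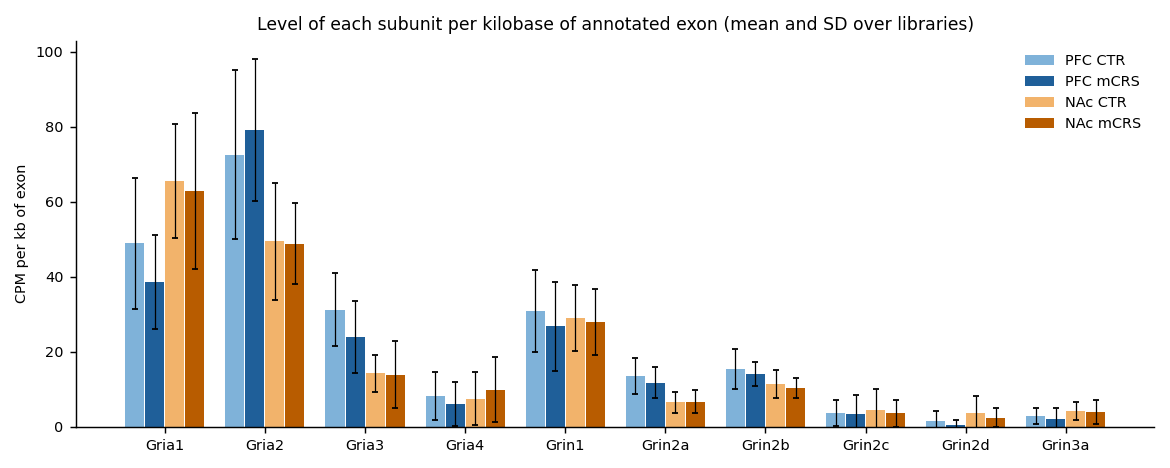
Mean level of each subunit in CPM per kilobase of annotated exon (vertical axis) in the 4 groups, with the SD over 15 or 16 libraries as error bars. Gria2 stands above Gria1 in the PFC groups (72.5 against 48.9 in CTR) and below it in the NAc groups (49.5 against 65.6 in CTR), whereas by CPM without division by length Gria2 was higher in all 4 groups (770 against 397 in NAc CTR).

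Between the regions of unstressed mice, Gria3, Grin2a and Gria2 were higher in the PFC, by 2.19-fold, 2.09-fold and 1.47-fold, and none of the 10 subunits was higher in the NAc at the same threshold. These were 3 of the 10 subunits, all 10 of which passed the low count filter, at a false discovery rate (FDR) below 0.05 in edgeR's quasi-likelihood test. Of all 9932 genes tested, 6.32% passed, 4.23% higher in the PFC and 2.09% higher in the NAc. The median log2 fold change was 0.12 over the subunits and -0.02 over all genes.

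Gria3, an AMPA subunit gene on the X chromosome, had the largest difference of the called subunits. Its CPM ran from 147 through a median of 281 to 461 in PFC CTR and from 70.8 through 133 to 253 in NAc CTR. All 15 PFC libraries lay above the NAc median and 12 of them above every NAc library, and the log2 fold change was 1.13 ± 0.19 (SE, FDR 1.33e-05). Grin2a, the subunit that gives NMDA receptors fast decay, ran from 87.8 through 232 to 403 CPM in the PFC and from 45.3 through 111 to 208 CPM in the NAc. Of the PFC libraries 14 of 15 lay above the NAc median and 9 above every NAc library, with a log2 fold change of 1.07 ± 0.22 (FDR 0.000553).

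Gria2, the edited subunit, was the most counted of the 10 genes. It ran from 644 through 1148 to 2075 CPM in PFC CTR and from 397 through 702 to 1143 CPM in NAc CTR, with 14 of 15 PFC libraries above the NAc median and 8 above every NAc library. Its log2 fold change was 0.56 ± 0.15 (FDR 0.0102). Without NAc CTR replicate 7 the log2 fold changes were 0.53 for Gria2 (FDR 0.0173), 1.09 for Gria3 (FDR 2.65e-05) and 1.01 for Grin2a (FDR 0.000933), so the 3 calls were the same.

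Gria1, whose product is inserted into synapses during potentiation, was the one well counted subunit with a lower value in the PFC. It ran from 207 through 275 to 608 CPM in PFC CTR and from 262 through 373 to 561 CPM in NAc CTR, and 12 of 15 PFC libraries lay below the NAc median. The log2 fold change of -0.42 ± 0.16 did not pass (p = 0.00966, FDR 0.114). The highest PFC value came from replicate 15, and leaving it out gave -0.53 (FDR 0.0186). DESeq2 also called Gria1, at -0.47 (FDR 0.0305). Grin2b, the GluN2B subunit gene, ran from 199 through 327 to 625 CPM in the PFC and from 132 through 290 to 436 CPM in the NAc, and its log2 fold change of 0.43 ± 0.18 did not pass either (p = 0.0194, FDR 0.182).

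Grin1, the subunit that every NMDA receptor contains, had close levels in the regions. It ran from 150 through 298 to 481 CPM in PFC CTR and from 158 through 270 to 507 CPM in NAc CTR, and the log2 fold change was 0.09 ± 0.18 with a 95% interval from -0.25 to 0.44 (FDR 0.924). Gria4, Grin2c, Grin2d and Grin3a also missed the threshold, with log2 fold changes of 0.15, -0.33, -1.29 and -0.53 and SEs of 0.50, 0.81, 0.89 and 0.49.

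**Figure D2:**
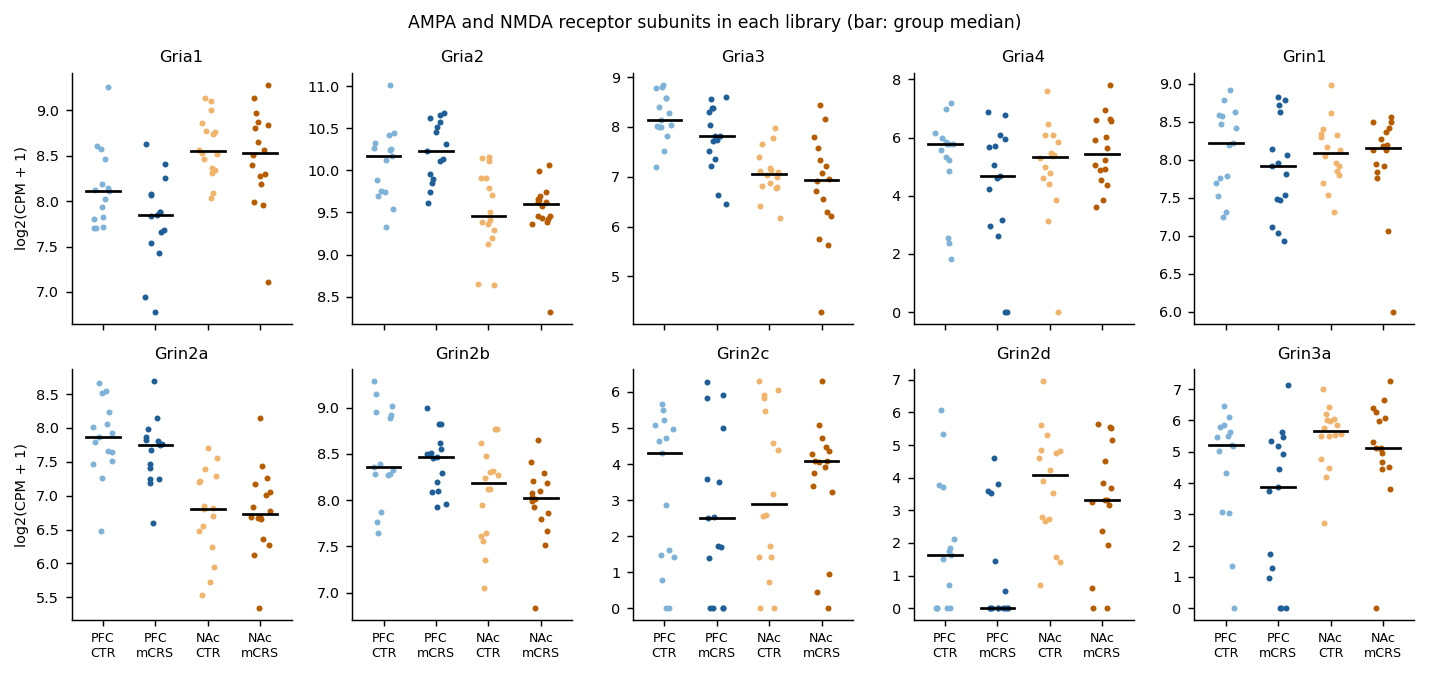
Each point is 1 library, as log2(CPM + 1) on the vertical axis, in the 4 groups, with the group median as a bar and 1 panel per subunit. Gria2, Gria3 and Grin2a sit higher in both PFC groups (medians of 1148 against 702 CPM for Gria2 in CTR) and Gria1 sits lower, while Gria4, Grin2c, Grin2d and Grin3a have libraries at 0.

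The mCRS libraries gave the same comparison in other mice. Gria2 and Grin2a were higher in the PFC there too, by 1.65-fold and 1.80-fold, and Gria1 was lower, by 1.60-fold. These 3 of 10 subunits passed an FDR of 0.05, 2 higher in the PFC and 1 higher in the NAc, while 6.5% of the 9452 genes tested passed, 4.49% higher in the PFC and 2.01% higher in the NAc.

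Gria2 ran from 782 through 1197 to 1643 CPM in PFC mCRS and from 317 through 776 to 1072 CPM in NAc mCRS. All 15 PFC libraries lay above the NAc median, 10 of them above every NAc library, and the log2 fold change was 0.72 ± 0.13 (SE, FDR 5.75e-05). Grin2a ran from 95.9 through 214 to 414 CPM in the PFC and from 39.4 through 105 to 283 CPM in the NAc, with 14 of 15 PFC libraries above the NAc median and a log2 fold change of 0.85 ± 0.23 (FDR 0.0116). With the share of listed genes that had a count as a covariate, Grin2a no longer passed, at 0.70 (FDR 0.0889).

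Gria1 ran from 109 through 230 to 395 CPM in PFC mCRS and from 138 through 370 to 622 CPM in NAc mCRS, and 14 of 15 PFC libraries lay below the NAc median. Its log2 fold change was -0.68 ± 0.19 (FDR 0.0123). Gria3 ran from 86.4 through 224 to 385 CPM in the PFC and from 18.5 through 122 to 345 CPM in the NAc, and its log2 fold change of 0.82 ± 0.27 fell just outside the threshold (FDR 0.0549). Grin2b, with a log2 fold change of 0.46 ± 0.16, did not pass either (FDR 0.0919).

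NAc mCRS replicate 10, the library rich in choroid plexus markers, had the lowest Gria2, Gria4 and Grin1 and the highest Grin2b CPM of its group. Without it the log2 fold changes were -0.66 for Gria1 (FDR 0.0192), 0.67 for Gria2 (FDR 6.84e-05) and 0.90 for Grin2a (FDR 0.00872), and Grin2b passed as well, at 0.51 (FDR 0.0463). The ranges of PFC and NAc libraries overlapped for each of the 10 subunits in both treatments. Over all genes tested, the ranges did not overlap for 0.413% in CTR and 0.307% in mCRS.

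**Figure D3:**
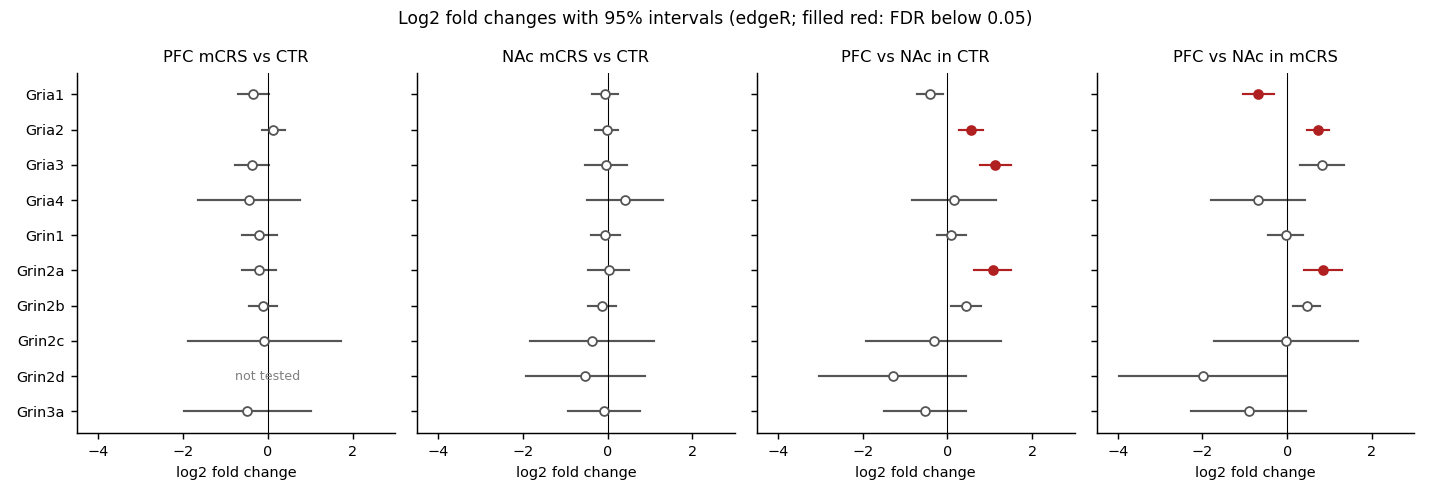
Log2 fold changes (horizontal axis) of the 10 subunits with 95% intervals in the 4 comparisons within a region or within a treatment, positive where mCRS or the PFC was higher; filled red points have an FDR below 0.05. Red points appear only in the 2 panels of PFC against NAc, where Gria2 and Grin2a are red in both, Gria3 in CTR and Gria1 in mCRS.

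When the difference between regions was averaged over CTR and mCRS in a fit of all 62 libraries, a step added after the values had been seen, 5 of the 10 subunits passed, while 11.3% of all genes did. Gria3 (log2 fold change 0.96 ± 0.17, FDR 4.11e-06), Grin2a (0.94 ± 0.16, FDR 1.53e-06), Gria2 (0.62 ± 0.10, FDR 5.23e-07) and Grin2b (0.43 ± 0.12, FDR 0.00693) were higher in the PFC. Gria1 was lower in the PFC, at -0.57 ± 0.12 (FDR 0.000226). Grin1 stood at 0.01 ± 0.14 with a 95% interval from -0.26 to 0.29, and Grin2d, a subunit best known from the brainstem and from interneurons, at -1.67 ± 0.70 (FDR 0.122). Without NAc CTR replicate 7 and NAc mCRS replicate 10 the same 5 subunits passed, with log2 fold changes of -0.56 for Gria1, 0.58 for Gria2, 0.91 for Gria3, 0.94 for Grin2a and 0.44 for Grin2b, and 11.2% of all genes did.

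The regions also differed in other cell markers beside these subunits. Of the 8 cortical excitatory markers, 5 were higher in the PFC in CTR libraries and none higher in the NAc, all 9 striatal projection neuron markers were higher in the NAc, and so were 5 of 6 oligodendrocyte markers. Of the 8 markers listed for interneurons, Cck (log2 fold change 4.23), Vip (3.13) and Npy (1.31) were higher in the PFC. Gad1 (-1.05) and Gad2 (-2.18) were higher in the NAc, whose projection neurons are GABAergic too. Pvalb, Sst and Lhx6 did not pass. The list is therefore not particular to interneurons, and its sum is no measure of them. That sum had a median of 2495 CPM in PFC CTR and 1854 CPM in NAc CTR, and that of the oligodendrocyte markers 3393 and 6641 CPM. The part of these markers in the subunit differences was not tested.

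Ratios of 2 subunits within a library need no scaling between libraries. Gria1 had fewer counts than Gria2 in every library of both regions except NAc mCRS replicate 10. The Gria1 to Gria2 count ratio ran from 0.101 through a median of 0.305 to 0.475 in PFC CTR and from 0.313 through 0.538 to 0.785 in NAc CTR. All 15 PFC libraries were below the NAc median and 9 were below every NAc library, and the geometric mean of the ratio differed by 2.03-fold. In mCRS the ratio ran from 0.0868 through 0.206 to 0.314 in the PFC and from 0.200 through 0.447 to 1.4 in the NAc, a 2.63-fold difference, with 7 of 15 PFC libraries below every NAc library.

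The Gria1 to Gria3 ratio separated the regions further. It ran from 0.472 through 0.825 to 2.35 in PFC CTR and from 1.82 through 3.01 to 4.37 in NAc CTR. There 13 of 15 PFC libraries were below every NAc library and the geometric mean differed by 3.0-fold. In mCRS the geometric mean differed by 3.18-fold, and 9 of 15 PFC libraries were below every NAc library. Without the NAc libraries that stand apart, the folds of the Gria1 to Gria3 ratio were 2.93 in CTR and 2.97 in mCRS, and those of Gria1 to Gria2 were 2.0 and 2.45.

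Among the NMDA subunits, the Grin2a to Grin1 ratio ran from 0.378 through 0.780 to 2.69 in PFC CTR and from 0.135 through 0.357 to 0.793 in NAc CTR. All 15 PFC libraries lay above the NAc median, 7 lay above every NAc library, and the geometric mean differed by 2.06-fold. The Grin2a to Grin2b ratio, often read as the balance of mature against juvenile NMDA receptors, had a median of 0.657 in PFC CTR against 0.377 in NAc CTR, and 12 of 15 PFC libraries lay above the NAc median. In mCRS the folds were 1.95 for Grin2a to Grin1 and 1.34 for Grin2a to Grin2b. There 13 of 15 PFC libraries lay above the NAc median of Grin2a to Grin1, but 0 lay above every NAc library. Without the NAc libraries that stand apart the folds were 2.20 and 1.34 in mCRS, and 2.0 and 1.56 in CTR. In that case 2 of the PFC mCRS libraries lay above every NAc library for Grin2a to Grin1. The ratios were chosen after the levels had been seen and are given without a test.

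**Figure D4:**
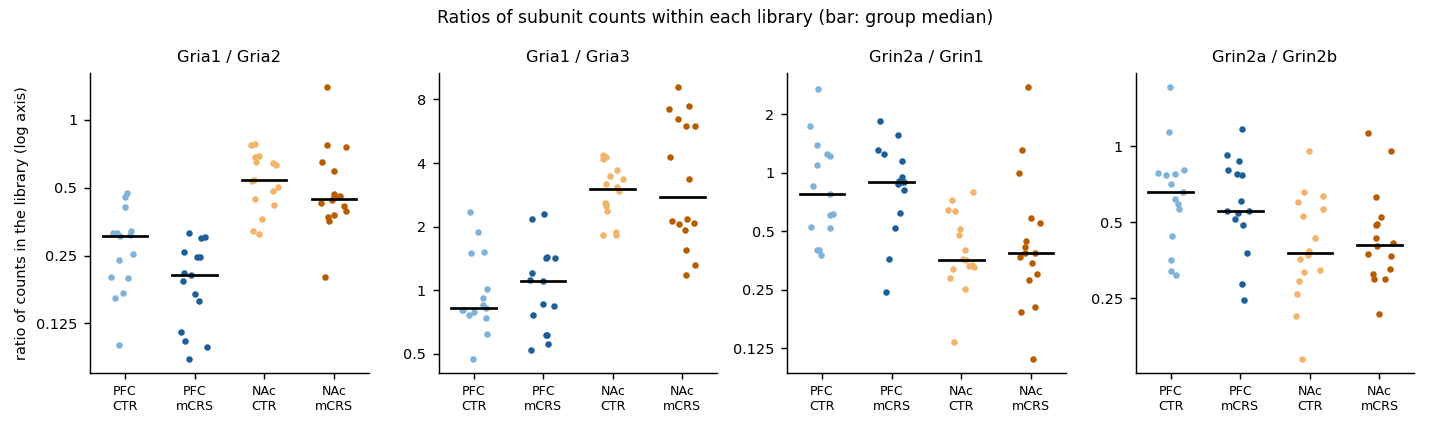
Count ratios within each library (vertical log axis) in the 4 groups, 1 point per library and the group median as a bar, for 4 pairs of subunits. The Gria1 / Gria2 and Gria1 / Gria3 ratios are lower in the PFC groups (medians of 0.305 and 0.825 in CTR) than in the NAc groups (0.538 and 3.01).

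After mCRS, none of the subunits changed in the PFC at an FDR below 0.05. Grin2d did not pass the low count filter, and of the 9 subunits tested 8 had lower values in mCRS and 1, Gria2, a higher one, and the median of their log2 fold changes was -0.20. Over all 8916 genes tested the median was -0.01, and 50.6% had lower values. None of the subunits had an unadjusted p below 0.05, while 3.52% of all genes did. The background at an FDR below 0.05 was 0% in edgeR's test, so the call count of the subunits, 0, equalled that of all genes.

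The AMPA subunits Gria1 and Gria3 had the lowest p values. Gria1 had a median of 275 CPM in PFC CTR and 230 CPM in PFC mCRS, where 12 of 15 libraries lay below the CTR median and 6 below every CTR library. Its log2 fold change was -0.34 ± 0.19 (SE, p = 0.0793, FDR 0.9997), with a 95% interval from -0.71 to 0.03. Gria3 had medians of 281 and 224 CPM, with 10 of 15 mCRS libraries below the CTR median, and a log2 fold change of -0.37 ± 0.20 (p = 0.0726, FDR 0.9997). Gria2 had medians of 1148 and 1197 CPM and a log2 fold change of 0.13 ± 0.14, with an interval from -0.14 to 0.40. The groups overlapped for all 3 genes.

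The NMDA subunits of the PFC gave log2 fold changes of -0.20 ± 0.21 for Grin1, -0.20 ± 0.21 for Grin2a and -0.12 ± 0.17 for Grin2b, and their 95% intervals reached from -0.61 to 0.21, from -0.61 to 0.20 and from -0.45 to 0.22. The spread was wider for the weakly counted subunits, with -0.45 ± 0.61 for Gria4, -0.08 ± 0.92 for Grin2c and -0.48 ± 0.76 for Grin3a. PFC mCRS also had a lower share of genes detected than PFC CTR, 82.3% against 87.1%. The median log2 fold changes of the marker lists lay on both sides of 0. They were -0.31 for cortical excitatory neurons, -0.21 for choroid plexus, -0.17 for astrocytes and -0.10 for oligodendrocyte precursors, between -0.01 and 0.01 for oligodendrocytes, endothelial cells and striatal projection neurons, 0.08 for interneurons and 0.20 for microglia. Their part in the subunit values was not tested. With that share as a covariate the log2 fold change of Gria2 was -0.0018 and that of Grin2c 0.55.

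In the NAc none of the 10 tested subunits passed between mCRS and CTR, where 0.00986% of 10141 genes did. That share is 1 gene, the choroid plexus marker Ttr (FDR 0.0339). None of the subunits had an unadjusted p below 0.05, where 2.04% of all genes did. Of the 10, 8 had lower and 2 higher values in mCRS, and the median of their log2 fold changes was -0.06. Over all genes tested the median was -0.01, and 50.7% had lower values. Gria1 had medians of 373 CPM in NAc CTR and 370 CPM in NAc mCRS, and a log2 fold change of -0.06 ± 0.15 with a 95% interval from -0.36 to 0.24. Gria2 had medians of 702 and 776 CPM and a log2 fold change of -0.02 ± 0.14, with an interval from -0.29 to 0.25. Grin1 stood at -0.05 ± 0.17, Grin2a at 0.02 ± 0.24 and Grin2b at -0.13 ± 0.17. Without NAc CTR replicate 7 and NAc mCRS replicate 10 none passed either.

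Whether the change after mCRS differed between the regions was tested as an interaction over all 62 libraries. None of the 10 subunits passed, where 0.00907% of 11025 genes did, and none had an unadjusted p below 0.05, where 3.09% did. The lowest p was that of Gria1 (log2 difference of PFC minus NAc -0.28 ± 0.24, p = 0.243, FDR 0.99998), and the interval of Gria2, from -0.24 to 0.53, was the narrowest. The differences between the regions in CTR and in mCRS were therefore not shown to differ for Gria1 or Gria3, although each passed in 1 treatment only. Without NAc CTR replicate 7 and NAc mCRS replicate 10 none passed in the interaction either.

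The 4 weakly counted subunits need a separate reading, since single libraries held much of their counts. Grin2d was at 0 in 5 of 15 PFC CTR and 9 of 15 PFC mCRS libraries, and PFC CTR replicate 12 alone held 48.9% of the Grin2d counts of its group. Its mean CPM was 9.59 ± 18.8 in PFC CTR and 4.01 ± 7.11 in PFC mCRS (SD, n = 15 each), which a two-sided permutation test with 100000 resamples did not separate (p = 0.351). In the NAc it ran from 0.629 through 15.9 to 124 CPM in CTR, with no library at 0, and from 0 through 8.91 to 48.7 CPM in mCRS, with 2 libraries at 0. Leaving out PFC CTR replicate 12 moved its log2 fold change of PFC against NAc in CTR from -1.29 to -2.09, still not called.

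Grin2c, a subunit best known from the cerebellum, was at 0 in 2 PFC CTR, 4 PFC mCRS, 2 NAc CTR and 1 NAc mCRS libraries, and its highest CPM lay between 49.7 and 78.3 in the 4 groups. Grin3a was at 0 in 1 PFC CTR, 3 PFC mCRS and 1 NAc mCRS library, with medians of 36.5, 13.7, 49.8 and 33.8 CPM in PFC CTR, PFC mCRS, NAc CTR and NAc mCRS. Gria4, which is typical of fast interneurons, had medians of 54.0, 24.7, 39.3 and 42.5 CPM in the same order. The CPM of these genes varied between libraries of a group with coefficients of variation of 76.7% to 98.0% for Gria4, 96.6% to 149% for Grin2c, 105% to 197% for Grin2d and 55.6% to 138% for Grin3a. For Gria2 they were 22.0% to 31.4%.

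Beside the subunits, 5 lists of genes around these receptors were read from the same fits. In CTR libraries 10 of 60 tested genes of these lists passed between the regions, 7 higher in the PFC and 3 in the NAc, against the 6.32% of all genes given above. The median log2 fold change of the 60 genes was 0.06. By list, 3 of 15 genes listed with the AMPA auxiliary subunits, 2 of 16 postsynaptic scaffolds, 3 of 14 trafficking genes, 2 of 8 co-agonist genes and none of 7 kainate and delta receptors passed. The auxiliary list is broader than its name, since it also holds assembly factors such as Frrs1l.

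Genes of AMPA receptor clustering had the largest differences among the called genes of these lists. Nptx1 and Nptxr, a secreted pentraxin and its membrane-bound partner that gather AMPA receptors at synapses, were higher in the PFC by log2 fold changes of 2.47 ± 0.34 (FDR 1.48e-07) and 2.04 ± 0.19 (FDR 4.9e-12). In the auxiliary list, Cnih3, a cornichon protein that slows the channel, stood at 1.72 ± 0.41 (FDR 0.00305) and Frrs1l, which helps to assemble the receptor, at 0.97 ± 0.17 (FDR 3.26e-05). Cacng4, a transmembrane AMPA receptor regulatory protein gene, was higher in the NAc, at -1.87 ± 0.40 (FDR 0.000784). The trafficking gene Gripap1 was also higher in the NAc, at -1.10 ± 0.34 (FDR 0.0379).

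Of the scaffolds, Dlgap1, which joins the Dlg and Shank proteins of the postsynaptic density, was higher in the PFC at 1.53 ± 0.18 (FDR 7.71e-09), and Shank1 at 0.88 ± 0.21 (FDR 0.00288). Of the co-agonist genes, Srr, the enzyme that makes D-serine, was higher in the PFC at 1.16 ± 0.32 (FDR 0.0156), and Slc6a9, a glycine transporter, was higher in the NAc at -1.57 ± 0.46 (FDR 0.0245). Homer2 (1.15 ± 0.47), Slc7a10 (-0.81 ± 0.60), Grik2 (-0.98 ± 0.46) and Grik4 (0.58 ± 0.76) did not pass. In mCRS libraries 7 of 60 tested genes passed, 6 higher in the PFC and 1 in the NAc, where 6.5% of all genes passed, 4.49% higher in the PFC and 2.01% higher in the NAc: Nptxr (1.95), Nptx1 (2.01), Dlgap1 (1.56), Frrs1l (0.85), Homer1 (0.91), Vps35 (1.07) and Cacng4 (-2.28). Without the NAc libraries that stand apart the same 10 genes passed in CTR and the same 7 in mCRS.

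**Figure D5:**
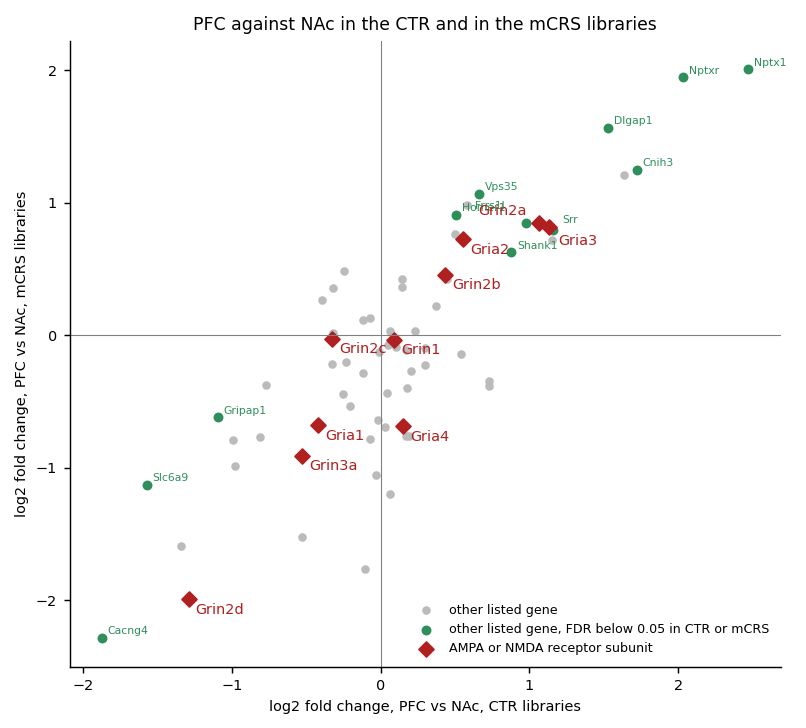
Log2 fold changes of PFC against NAc in the CTR libraries (horizontal axis) and in the mCRS libraries (vertical axis), which are separate libraries, for the 10 subunits (red diamonds) and the other listed genes (green where the FDR was below 0.05 in CTR or mCRS). Gria2, Gria3, Grin2a and Grin2b lie above 0 on both axes and Gria1 below 0 on both, with Nptx1 (2.47 and 2.01) and Nptxr (2.04 and 1.95) farthest to the upper right.

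After mCRS none of the listed genes passed an FDR of 0.05 in either region. In the PFC 4 of 58 tested genes had an unadjusted p below 0.05, and 42 of the 58 had lower values in mCRS (median -0.19 on the log2 scale), where over all genes 3.52% had such a p and 50.6% had lower values. Dlg1, a scaffold that binds Gria1, stood at 0.68 ± 0.26 (p = 0.0118), Epb41l1, which anchors AMPA receptors to actin, at -0.56 ± 0.22 (p = 0.0133), Nsf, the fusion factor that binds Gria2, at -0.35 ± 0.14 (p = 0.0154) and Dlgap3 at -0.63 ± 0.28 (p = 0.0315), all with an FDR of 0.9997. The smallest p values of the other lists were those of Cnih2 (-0.37 ± 0.21, p = 0.0817), Grik3 (-0.69 ± 0.60, p = 0.259) and Srr (-0.28 ± 0.35, p = 0.425). In the NAc none of 62 listed genes had an unadjusted p below 0.05, where 2.04% of all genes did, and 31 had higher and 31 lower values. The lowest p values by list were those of Shisa9 (-0.65 ± 0.38, p = 0.091), Homer1 (-0.34 ± 0.22, p = 0.126), Gripap1 (-0.44 ± 0.29, p = 0.143), Psat1 (-0.51 ± 0.36, p = 0.158) and Grik5 (0.30 ± 0.22, p = 0.169).

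How the subunits moved with other genes between libraries of the same group was read from log2 CPM centred on each group mean. This used 62 libraries and 11010 genes that share depth and library preparation. The genes named have the highest of 11010 correlations for a subunit. Whether unrelated genes would reach such values by this selection was not tested. Gria2 was most like Dpp10 (Pearson r 0.59), a potassium channel partner, and the mitochondrial genes mt-Nd2 (0.57) and mt-Cytb (0.55). Gria4 was most like Grik3 (0.62), a kainate receptor subunit, then Mast1 (0.53) and Akap8 (0.53). Grin1 was most like Arrb2 (0.54), Gria3 like Ift27 (0.53) and Ldb2 (0.50), and Grin2b like Pcgf3 (0.53) and Epb41l3 (0.50). Grin2c was most like Scrn3 (0.60), Sap30 (0.58) and Mcat (0.58), and Grin3a like Kcnk3 (0.56), Cpne3 (0.54) and Rps2 (0.54). Gria1, Grin2a and Grin2d had no gene at 0.5 or above. Without NAc CTR replicate 7 and NAc mCRS replicate 10 the r of Gria2 with Dpp10 was 0.47 and that of Gria3 with Ldb2 0.49, and the others stayed at 0.5 or above.

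Among the subunits themselves, Gria1 with Grin2c (r 0.33) and Gria1 with Gria3 (r 0.32) had the highest correlations of the 45 pairs over the 62 libraries. Within a region some pairs had larger values of r, and those named next were picked from the 45 for their size. Whether unrelated genes would reach such values by this selection was not tested. Gria1 and Grin2c had an r of 0.53 over the 30 PFC libraries and of 0.12 over the 32 NAc libraries. Gria2 and Grin1 had an r of -0.55 in the PFC and of 0.56 in the NAc, and the latter was 0.29 without NAc CTR replicate 7 and NAc mCRS replicate 10. Grin2c and Grin3a also followed the share of genes detected in a library, with r of 0.50 and 0.44. The well counted Grin1 had 0.34, Grin2b 0.21 and Grin2a -0.21, while Gria1, Gria2 and Gria3 had 0.10, -0.16 and 0.07. Gria4 and Grin2d had 0.08 and 0.02.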

How the data were processed

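Counts per gene of 62 BRB-seq libraries were used as deposited. The authors mapped reads with STAR to GRCm38 and counted them per gene with htseq (version 0.9.1 in the submitters' processing notes), left out PFC libraries of poor sequencing quality, and deposited unnormalized counts. No use of molecular identifiers is stated, so PCR copies may be counted and widen the spread. Gene symbols came from Ensembl identifiers, and sequences and exon lengths from GENCODE on GRCm38.

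Each comparison was fitted over all genes with edgeR 4.0.16 (R 4.3.3): filterByExpr by group with its default minimum count of 10, TMM, the quasi-likelihood test and Benjamini-Hochberg adjustment, called at an FDR below 0.05. The 95% intervals are normal approximations from the SE. Grin2d in the PFC, below the filter, was compared by permutation (scipy 1.17.1). Fits were also tested on simulated counts of independent libraries. That setting does not cover shared mice, differences as small as those after mCRS or the libraries that stand apart. Libraries were taken as independent, since which PFC and NAc libraries share a mouse is not given in the sources used here. Libraries of the same replicate number in CTR and mCRS, or in PFC and NAc, had correlations of group-centred values between -0.03 and 0.05. No pair known to share a mouse was available to show that this check could detect one, so it does not exclude pairing by number. By the paper's methods, PFC and NAc tissue for RNA came from the same animals. The regional and interaction fits therefore treated libraries of shared mice as independent, and the effect of this was not tested.

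The members and lists were chosen with earlier results of these data known. Named are all 10 subunits, the genes of smallest p (at most 3) of each pathway list in a comparison and those called, genes with r of at least 0.5, and markers by list. Homer1 and Vps35, called in the mCRS libraries, were named after their values were seen. Some listed items are not reported here, and pore-loop stretches are shown for 6 subunits. Alternatives were DESeq2 1.42.0, RLE, library sizes without mtDNA genes, other filters, 1 fit of all libraries, the covariates named in the closing section and each library left out in turn. Leaving out the libraries that stand apart and averaging over treatments were chosen after seeing the data.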

Additional observations from a re-analysis of the deposited data

How the results depend on the processing

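The counts of called subunits kept within 1.5 times under each alternative: 0 in both stress comparisons and in the interaction, 3 or 4 for PFC against NAc in CTR, also with each library left out, and 2 to 4 in mCRS. The calls of Gria2, Gria3 and Grin2a in CTR held in all 31 fits without 1 library, with log2 fold changes of 0.47 to 0.61, 1.08 to 1.21 and 0.99 to 1.15. Gria1 was called in CTR by DESeq2 (-0.47) and without PFC CTR replicate 15 (-0.53). In mCRS libraries, Gria3 was called in the fit of all 62 libraries (0.79), Grin2b without NAc mCRS replicate 10 (0.51), and Grin2a was not called with the share of listed genes that had a count as a covariate (0.70). The replicate block changed no call of a subunit, with 3 called in both regional comparisons, and gave 8 in place of 10 listed genes in CTR. Leaving out libraries one at a time was not run for PFC against NAc in mCRS or for the interaction.

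Signs turned only for values that were not called, and the cause was not tested. With the share of listed genes as a covariate these were Gria2 (-0.0018) and Grin2c (0.55) after mCRS in the PFC, Grin2a (-0.051) and Grin2c (0.44) after mCRS in the NAc, Gria4 (-0.11) and Grin2c (2.02) between regions in CTR, Grin1 (0.14) between regions in mCRS and Grin2c (-0.23) in the interaction. With the replicate block they were Gria2 (0.020) and Grin2c (0.39) in the NAc, Grin2c (0.29) between regions in CTR and Grin2c (-0.76) in the interaction. With the numbering split after 8, Grin2c turned between regions in CTR (0.0045) and in the interaction (-0.24), without a filter Grin2b in the interaction (-0.0087), and without the libraries that stand apart Gria2 (0.011) and Grin2a (-0.071) after mCRS in the NAc. Leaving out 1 library gave ranges across 0 after mCRS in the NAc for Gria1 (-0.13 to 0.00073), Gria2 (-0.062 to 0.038), Gria3 (-0.19 to 0.045), Grin1 (-0.095 to 0.031), Grin2a (-0.11 to 0.11) and Grin3a (-0.30 to 0.063), in the PFC for Grin2c (-0.49 to 0.094), and between regions in CTR for Gria4 (-0.038 to 0.48). For Grin2d in the PFC the permutation test on log2(CPM + 1) gave a difference of -0.73 (p = 0.300). The weakly counted subunits had wide intervals, from -1.88 to 1.72 for Grin2c after mCRS in the PFC, and the part of depth in this was not tested.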
